A study of Homo sapiens with 8 samples.

Results

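The genes of the apicobasal polarity complexes were followed in HepG2 cells upon GRHL2 ectopic expression. They were the PAR complex genes PARD3, PARD6B, PRKCI and PRKCZ, the Crumbs complex genes CRB3 and PATJ, and the Scribble complex genes LLGL1, LLGL2, SCRIB and DLG1. Members were taken from the deposited expression table by exact match of the gene symbol, which found 10 of 10 among 17561 genes. HepG2 is a human hepatocarcinoma cell line. The cells had been transfected with pGRHL2, a plasmid that drives a flag-tagged GRHL2 cDNA from the EEF1A1 promoter and also encodes enhanced green fluorescent protein, or with the control vector pcDNA3, and RNA was taken 48 h later and sequenced as mRNA libraries. Each group held 4 libraries numbered 1 to 4, which the study describes as independent biological replicates. The plasmids differed in promoter and reporter as well as in the insert, so that the effect of GRHL2 and that of the rest of the construct cannot be told apart. A single cell line, transiently transfected, was used throughout, and in such bulk RNA a change in the share of cells that took up the plasmid and a change in RNA per cell cannot be told apart.

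Epithelial cells separate an apical from a basolateral membrane domain through 3 groups of proteins, of which the apical and the basolateral ones oppose each other. The PAR complex, in which the scaffolds PAR3 and PAR6 hold an atypical protein kinase C, and the Crumbs complex, in which the transmembrane protein CRB3 is linked through PALS1 to the scaffold PATJ, act at the apical side and at the forming tight junction. The Scribble complex, made of SCRIB, DLG and LGL proteins, acts at the basolateral side, and phosphorylation by the atypical kinase keeps LGL out of the apical domain. In hepatocytes these complexes position the bile canaliculus between neighbouring cells, whereas in cholangiocytes they face the apical membrane towards the lumen of the bile duct. GRHL2 is a Grainyhead family transcription factor known for its role in epithelial cells, and the comparison asked whether the transcripts of this machinery changed when it was supplied.

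The group labels were checked first with the transfected gene, whose log2 values ranged from 6.61 to 7.25 in pcDNA3 and from 16.22 to 16.87 in pGRHL2 libraries. The GRHL2 log2 fold change (log2 FC, pGRHL2/pcDNA3) was 9.48 ± 0.57 (SD, n = 4 pairs), with a limma Benjamini-Hochberg adjusted p of 4.84e-08. The deposited values were on a log2 scale adjusted for transcript length, and read depth was unknown. Libraries of the same number were treated as a pair, because the 4 pair means were equal in each of the 17561 genes, so that the values of a pair mirror each other around the mean of the gene. Both groups therefore have the same SD, the groups do not overlap exactly when all 4 pair differences have 1 sign, and the variation in level from pair to pair cannot be read from the table. Of the markers, 8 of 8 hepatocyte genes had mean log2 values of 9.83 to 17.1 and 4 of 4 cholangiocyte genes lay between 5.35 and 13.9. The mean over the listed hepatocyte genes lay between 13.34 and 13.53 in pcDNA3 and between 13.42 and 13.62 in pGRHL2 libraries, and those over the cholangiocyte genes between 9.99 and 10.11 and between 10.10 and 10.22. The fibroblast and endothelial genes in the table had mean log2 values of 5.08 to 5.82, the leukocyte genes were not analysed here, and 0 marker genes were called by limma. Nearest to the threshold, named after their values were seen, were KRT7 and COL1A1, each higher in pGRHL2 in 4 of 4 pairs. Their log2 FC were 0.19 and 0.20 (limma adjusted p of 0.0970 and 0.0838). The study, which tested read counts with DESeq2, names KRT7 among the genes induced by GRHL2. Limma on the deposited values is another test on another measure, so that a missed threshold here does not contradict that report.

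All 10 polarity genes were expressed in HepG2 cells, at levels above those of 47.0% to 86.5% of the genes in the table. On the per-length log2 scale, the mean level in the 4 pcDNA3 libraries was highest for PRKCZ at 9.84 ± 0.038 (SD, n = 4), followed by PRKCI at 9.71 ± 0.061, LLGL2 at 9.71 ± 0.057, PARD3 at 9.60 ± 0.090 and DLG1 at 9.38 ± 0.040. PARD6B stood in the middle at 8.30 ± 0.19. The lower levels were those of PATJ at 7.50 ± 0.070, CRB3 at 7.37 ± 0.042, LLGL1 at 7.30 ± 0.064 and SCRIB at 6.39 ± 0.30. Because the pair means are equal, these SDs and the library ranges come only from the differences between groups. They hold no variation in level between replicates. On such ranges, PRKCI and LLGL2, LLGL2 and PARD3, and CRB3 and LLGL1 overlapped as neighbours in this order. All other neighbours had separate ranges, which does not establish that their levels differ between replicates. On this scale the PAR complex genes lay in the upper and middle part of the order and both Crumbs complex genes in the lower part. The Scribble complex held genes of high and of low level. The adjustment used the mean length over all annotated transcripts of a gene, which in GENCODE was 948 bases for PRKCZ and 5108 bases for LLGL1. How far the order depends on this adjustment was not tested.

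**Figure D1:**
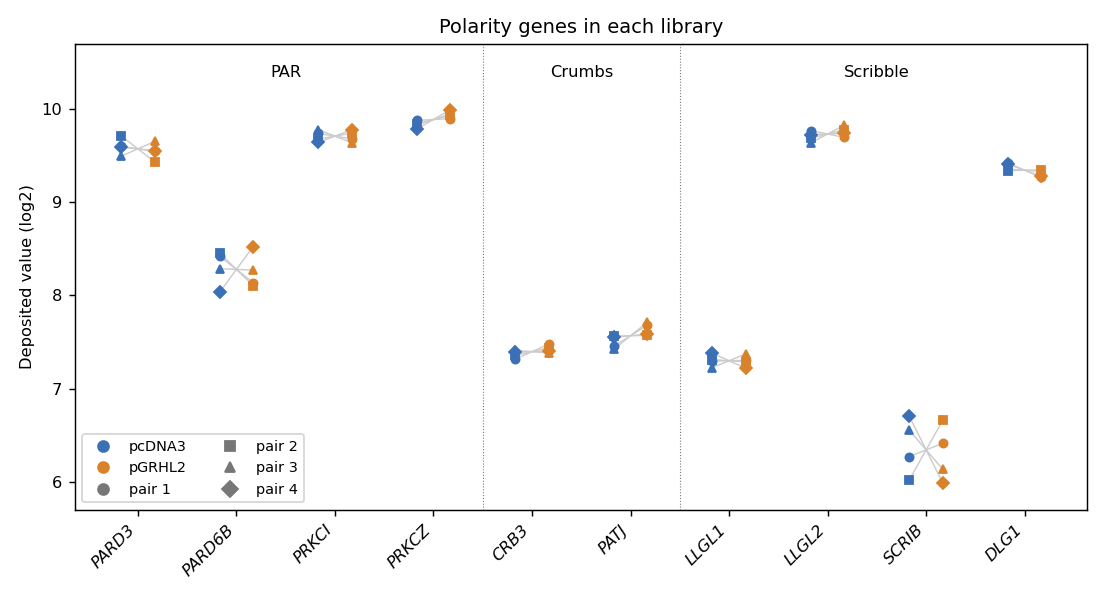
Deposited log2 values of the 10 polarity genes (y axis) in the 4 pcDNA3 (blue) and the 4 pGRHL2 libraries (orange), grouped by complex, with a line joining the libraries of a pair. The groups overlap for 8 genes and are separate for PRKCZ and PATJ, and the widest ranges are those of SCRIB, from 5.98 to 6.70, and PARD6B, from 8.03 to 8.53.

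Each member had relatives of its family in the table, and the levels below are means over the 8 libraries on the same per-length log2 scale. PARD3 (9.57) was above PARD3B (7.66), and PARD6B (8.28) was above PARD6G (6.43) and PARD6A (5.66). CRB3 (7.40) was far above CRB2 (0.92), a Crumbs protein better known from retina and kidney, and CRB1 was not analysed here. PATJ (7.57) was above its multi-PDZ relative MPDZ (6.98), and DLG1 (9.34) was above DLG3 (6.90), DLG4 (4.79) and DLG2 (2.68). SCRIB (6.34) was the exception, since LRRC1 (9.25) and ERBIN (8.58), which belong to the same family of leucine-rich repeat and PDZ proteins, had higher levels, and LRRC7 (2.76) alone was below it. In each of these families the listed genes had library ranges that did not overlap, although these ranges hold no variation in level between replicates.

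None of the 10 polarity genes was called higher or lower in pGRHL2. At a limma adjusted p under 0.05, 0 of 10 members were higher, beside 1.69% of all genes, and 0 of 10 were lower, beside 0.501% of all genes. These shares include many genes at levels below those of the members. When genes with mean log2 values under 5 were left out, 63 genes were called higher and 81 lower, in place of 297 and 88. An unadjusted limma p under 0.05 was reached by 0 of 10 members, beside 16.0% of all genes. The log2 FC was positive for 5 members and negative for 5, and ranged from -0.088 (SCRIB) to 0.14 (PATJ) with a median of -0.0040, beside a median of 0.0017 over all genes. The groups were separate with pGRHL2 higher for 2 of 10 members, beside 13.4% of all genes, and with pGRHL2 lower for 0 of 10, beside 10.5%. The lowest limma adjusted p of the members was 0.339. The intervals below, rather than the p values, give the size of change allowed under the limma model. Both describe only the pairs of this experiment, and limma moderates the spread of each gene towards that of genes at a like level. For SCRIB and PARD6B, the members that varied most between pairs, the intervals are therefore narrower than their own pairs alone would give.

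**Figure D2:**
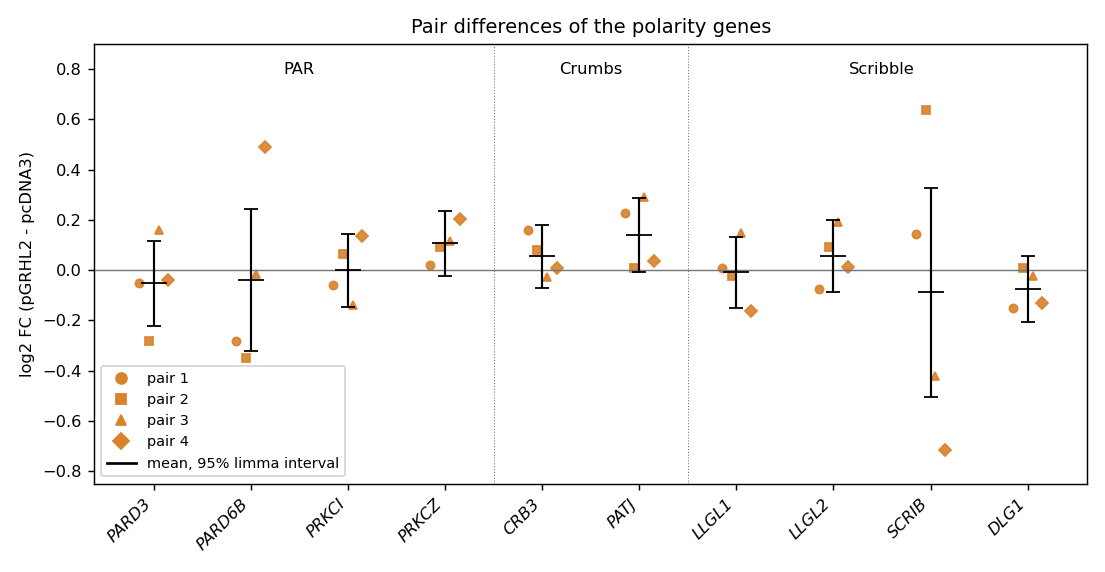
Pair differences of the 10 polarity genes (orange symbols, 1 per pair) with the log2 FC (horizontal mark) and its 95% limma interval (bar), on the y axis in log2 units of pGRHL2 minus pcDNA3. All 10 intervals include 0, and the widest is that of SCRIB, from -0.50 to 0.33.

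Among the PAR complex genes, PRKCZ, which encodes the atypical protein kinase C zeta, was the member with separate groups. Its log2 values were 9.88, 9.84, 9.83 and 9.79 in pcDNA3 libraries 1 to 4, and 9.90, 9.94, 9.95 and 9.99 in pGRHL2 libraries 1 to 4. Every pGRHL2 library was above every pcDNA3 library, although the gap was narrow. The log2 FC was 0.11 ± 0.076 (SD, n = 4 pairs; 95% interval -0.022 to 0.24), with a limma unadjusted p of 0.0915 and an adjusted p of 0.410. On the linear scale this interval runs from 0.985-fold to 1.18-fold. Without the replicate block the limma adjusted p of PRKCZ was 0.0411, the one member call found in any setting tried. That fit counts the mirrored values of a pair as independent, so that its p values are too small here. The gene lies on chromosome 1 from 2050411 to 2185395 (hg38, plus strand), and 12.2% of its exon bases are shared with FAAP20, the antisense gene PRKCZ-AS1 and 1 unnamed gene. Reads were counted without strand and in the union mode of HTSeq, and how reads on the shared bases affected the PRKCZ value was not tested.

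PRKCI, which encodes the other atypical kinase, iota, showed no common direction. In library order its log2 values were 9.74, 9.68, 9.78 and 9.64 in pcDNA3 and 9.68, 9.74, 9.64 and 9.78 in pGRHL2 libraries 1 to 4. The ranges of both groups covered each other almost completely, with 2 pairs higher and 2 lower in pGRHL2. The log2 FC was 2.5e-04 ± 0.12 (SD, n = 4 pairs; 95% interval -0.15 to 0.15; limma adjusted p of 0.999), which corresponds to 0.904-fold to 1.11-fold. The difference between both kinases was tested directly, and the PRKCI pair difference was lower than that of PRKCZ in 4 of 4 pairs, by 0.11 ± 0.10 on average. The exact two-sided sign-flip test gave p = 0.125, the smallest that 4 pairs allow, and 0.25 after Benjamini-Hochberg adjustment over 2 paralogue comparisons, so that a difference between the kinases was not established. The mean of this difference was -0.059 without replicate 3 and -0.057 with trends on GC content, transcript length and expression level taken out.

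The scaffold genes of the PAR complex had log2 FC close to 0 with a wide spread. PARD3, whose product recruits the complex to cell junctions, had log2 values of 9.60, 9.71, 9.49 and 9.59 in pcDNA3 and 9.55, 9.43, 9.65 and 9.55 in pGRHL2 libraries 1 to 4. Its log2 FC was -0.053 ± 0.18 (SD, n = 4 pairs; 95% interval -0.22 to 0.12; limma adjusted p of 0.804), with 3 pairs lower and pair 3 higher. Without replicate 2 the PARD3 log2 FC was 0.023, so that its sign rested on that pair. PARD6B, which encodes the adaptor between the kinase and the small GTPase CDC42, had log2 values of 8.42, 8.45, 8.29 and 8.03 in pcDNA3 and 8.14, 8.11, 8.27 and 8.53 in pGRHL2 libraries 1 to 4. Pairs 1 and 2 were lower in pGRHL2, pair 3 was nearly level and pair 4 was higher by 0.49. The log2 FC of PARD6B was -0.039 ± 0.38 (SD, n = 4 pairs; 95% interval -0.32 to 0.24; limma adjusted p of 0.928), and the value turned to 0.042 without replicate 1 and 0.064 without replicate 2. The SD of the PARD6B pair differences exceeded that of 99.5% of all genes.

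Both Crumbs complex genes had positive log2 FC. PATJ, the multi-PDZ scaffold of the complex, lies on chromosome 1 from 61742477 to 62178675 (plus strand), and had log2 values of 7.45, 7.56, 7.42 and 7.55 in pcDNA3 and 7.68, 7.57, 7.71 and 7.59 in pGRHL2 libraries 1 to 4. Every pGRHL2 library was above every pcDNA3 library, but pairs 2 and 4 differed by only 0.0082 and 0.038, against 0.23 and 0.29 in pairs 1 and 3. The PATJ log2 FC of 0.14 ± 0.14 (SD, n = 4 pairs) was the highest among the members, with a 95% interval of -0.0069 to 0.29, a limma unadjusted p of 0.0594 and an adjusted p of 0.339. The interval runs from 0.995-fold to 1.22-fold. Leaving out 1 replicate at a time gave PATJ log2 FC of 0.091 to 0.19. The limma adjusted p was 0.228 to 0.720 over the other settings with the replicate block. Without the block it was 0.0619, from the fit that counts mirrored values as independent.

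CRB3 encodes the Crumbs protein of most epithelia and lies on chromosome 19 from 6463777 to 6467221 (plus strand). CRB3 had log2 values of 7.32, 7.36, 7.41 and 7.39 in pcDNA3 and 7.48, 7.44, 7.38 and 7.40 in pGRHL2 libraries 1 to 4. Pairs 1 and 2 were higher in pGRHL2, pair 4 was nearly level and pair 3 was slightly lower, so that the groups overlapped. The CRB3 log2 FC was 0.056 ± 0.083 (SD, n = 4 pairs; 95% interval -0.070 to 0.18; limma adjusted p of 0.702), which corresponds to 0.952-fold to 1.13-fold. Without replicate 1 the CRB3 log2 FC was 0.021, the lowest of the settings tried.

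The promoters of PATJ and PRKCZ, the 2 members with separate groups, and of CRB3 are shown because the factor supplied binds DNA. RefSeq (GRCh38.p14) promoter windows of 300 bases, from 250 bases before to 50 bases after the RefSeq start of a gene, were at hand for 6 of 10 members (PRKCZ, PATJ, PRKCI, DLG1, LLGL1 and CRB3). Entries for PARD3, PARD6B, LLGL2 and SCRIB were not used here. The windows printed are PATJ at chr1:61742230-61742529, CRB3 at chr19:6464021-6464320 and PRKCZ at chr1:2073414-2073713, all on the plus strand. The CRB3 and PRKCZ windows, and that of DLG1, which is not printed, lie wholly inside the GENCODE genes, downstream of their outermost start. Capitals mark the E-box letters CAGGTG read on either strand (CACCTG on the printed one), known as a binding sequence of the repressors of the SNAI and ZEB families.
PATJ: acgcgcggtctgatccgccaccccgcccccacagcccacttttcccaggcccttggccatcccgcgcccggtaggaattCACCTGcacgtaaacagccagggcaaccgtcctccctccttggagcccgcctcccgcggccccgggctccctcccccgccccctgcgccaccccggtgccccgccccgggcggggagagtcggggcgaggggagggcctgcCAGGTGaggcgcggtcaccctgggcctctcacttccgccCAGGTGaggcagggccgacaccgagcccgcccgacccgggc
CRB3: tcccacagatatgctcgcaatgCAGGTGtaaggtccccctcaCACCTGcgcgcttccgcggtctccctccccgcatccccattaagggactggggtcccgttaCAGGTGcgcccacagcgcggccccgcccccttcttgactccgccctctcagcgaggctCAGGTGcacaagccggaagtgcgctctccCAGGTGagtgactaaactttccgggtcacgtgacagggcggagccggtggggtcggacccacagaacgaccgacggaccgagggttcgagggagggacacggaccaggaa
PRKCZ: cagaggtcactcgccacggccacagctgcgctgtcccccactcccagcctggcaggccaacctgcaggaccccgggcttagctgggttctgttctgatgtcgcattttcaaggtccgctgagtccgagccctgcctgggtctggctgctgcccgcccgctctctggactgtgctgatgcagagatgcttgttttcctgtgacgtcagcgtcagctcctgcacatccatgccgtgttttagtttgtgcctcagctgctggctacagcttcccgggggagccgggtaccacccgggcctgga
The Grainyhead letters AACNNGTT, searched on both strands, were found in 0 of these 6 windows, and in 3.50% of all 27305 promoters and 2.57% of the 12829 promoters whose genes were in the expression table. The closer forms AACCNGTT and AACCGGTT, which are contained in the first, occurred in 1.73% and 0.117% of all promoters. CAGGTG occurred 5 times in the CRB3 window, 3 times in that of PATJ, once in that of DLG1 and not in those of PRKCZ, PRKCI and LLGL1. At least 1 match was present in 20.6% of all promoters, and at least 3 matches in 0.460% of those whose genes were in the table. The cut-off of 3 equals the PATJ count, so that this share is a description and not a test. These letters describe the windows alone, and binding of a factor to them was not examined here. The study mapped GRHL2 binding in transfected HepG2 cells by chromatin immunoprecipitation and sequencing, and those data were not used here.

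The Scribble complex genes had 1 positive and 3 negative log2 FC, and none had separate groups. LLGL2 encodes an LGL protein of epithelial cells, and had log2 values of 9.77, 9.69, 9.64 and 9.73 in pcDNA3 and 9.70, 9.78, 9.83 and 9.74 in pGRHL2 libraries 1 to 4. It was higher in pGRHL2 in 3 of 4 pairs, with a log2 FC of 0.056 ± 0.11 (SD, n = 4 pairs; 95% interval -0.086 to 0.20; limma adjusted p of 0.737), which was 0.011 without replicate 3 and 0.099 without replicate 1. Its paralogue LLGL1 had log2 values of 7.30, 7.31, 7.23 and 7.38 in pcDNA3 and 7.30, 7.29, 7.37 and 7.22 in pGRHL2 libraries 1 to 4. The LLGL1 pairs went either way, with a log2 FC of -0.0083 ± 0.13 (SD, n = 4 pairs; 95% interval -0.15 to 0.13; limma adjusted p of 0.973), which became 0.044 without replicate 4. The pair difference of LLGL2 was above that of LLGL1 in 3 of 4 pairs, by 0.064 ± 0.11 on average (exact two-sided sign-flip p = 0.375, and 0.375 after Benjamini-Hochberg adjustment), and this mean was 0.026 without replicate 4 and 0.11 without replicate 1. The genes lie apart on chromosome 17, LLGL1 from 18225635 to 18244875 and LLGL2 from 75525080 to 75575209, both on the plus strand.

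DLG1 encodes a basolateral scaffold with PDZ and guanylate kinase domains, and had the narrowest interval of the Scribble complex genes. Its log2 values were 9.42, 9.34, 9.36 and 9.41 in pcDNA3 and 9.27, 9.35, 9.33 and 9.28 in pGRHL2 libraries 1 to 4. Pairs 1 and 4 were lower in pGRHL2 by more than 0.1 whereas pairs 2 and 3 were nearly level, and the groups overlapped. The DLG1 log2 FC was -0.075 ± 0.079 (SD, n = 4 pairs; 95% interval -0.21 to 0.057; limma adjusted p of 0.604), which corresponds to 0.867-fold to 1.04-fold. It was negative in every setting tried, from -0.10 without replicate 2 to -0.025 with the same trends taken out.

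SCRIB, the scaffold that gives its name to the complex, varied between pairs more than any other member. The SCRIB log2 values were 6.27, 6.02, 6.55 and 6.70 in pcDNA3 and 6.41, 6.66, 6.13 and 5.98 in pGRHL2 libraries 1 to 4. Pair 1 was higher in pGRHL2 by 0.14 and pair 2 by 0.64, whereas pairs 3 and 4 gave pair differences of -0.42 and -0.72. Its mean pair difference, the log2 FC, was -0.088 ± 0.60 (SD, n = 4 pairs; 95% interval -0.50 to 0.33; limma adjusted p of 0.883), and this interval spans 0.705-fold to 1.25-fold. Through the moderation by limma, the interval is narrower than the SCRIB pairs alone would give. The SD of the SCRIB pair differences exceeded that of 99.9% of all genes. SCRIB also had the highest GC content of the members, 66.8% over its transcripts. The 263 other genes with at least this GC content had median pair differences of 0.032, 0.030, -0.021 and -7.2e-04, in pairs 1 to 4. For the 53 of these at a like mean level, the medians were 0.049, 0.070, -0.045 and -0.0073. With trends on GC content, transcript length and expression level taken out, the pair differences of SCRIB were 0.092, 0.59, -0.44 and -0.68. Their SD was then 0.57, beside 0.60 before, and the cause of this spread was not tested. The sign of the SCRIB log2 FC rested on single pairs, since it was 0.022 without replicate 3 and 0.12 without replicate 4, and -0.33 at the lowest when another pair was left out.

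**Figure D3:**
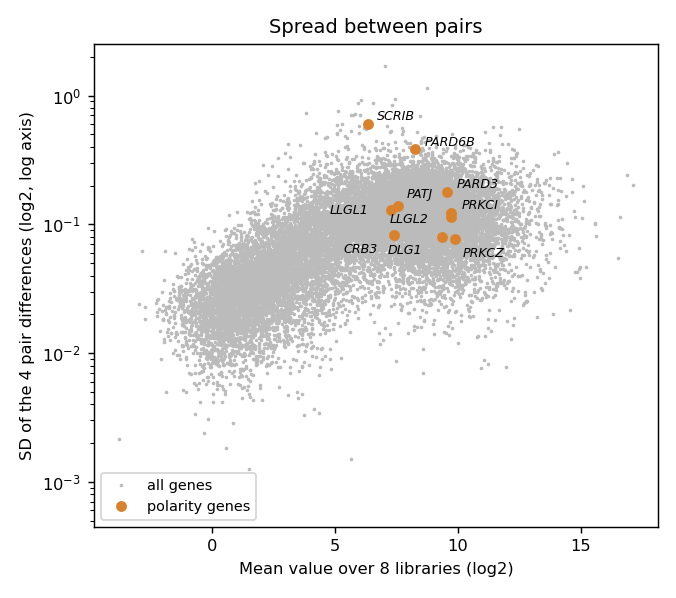
SD of the 4 pair differences (y axis, log2 units on a log axis) against the mean log2 value over the 8 libraries (x axis) for all 17561 genes (grey) and the 10 polarity genes (orange). SCRIB at 0.60 and PARD6B at 0.38 lie at the upper edge of the cloud, and the other 8 members lie within it, from 0.076 to 0.18.

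Read by complex, the median log2 FC was -0.019 for the 4 PAR genes, 0.098 for the 2 Crumbs genes and -0.041 for the 4 Scribble genes, and these medians were not compared by a test. Read by pair, 5, 7, 5 and 6 of the 10 members were higher in pGRHL2 in pairs 1 to 4, with medians of -0.022, 0.036, 0.050 and 0.011. The extremes changed hands between pairs. PARD6B was the lowest member in pairs 1 and 2 and the highest in pair 4, and SCRIB was the highest in pair 2 and the lowest in pairs 3 and 4. A further division was given by the epithelial gene list of the study, the Epith-Signature, which holds PARD6B, PRKCZ, CRB3, PATJ and LLGL2. Of these 5 genes 4 had a positive log2 FC (median 0.056), and of the 5 members outside the list 1 did (median -0.053), with all 10 short of the threshold. The list was drawn up apart from these libraries, but the division was made with their values known and is given as a description.

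The other genes of the polarity pathway gave a like picture. Of 37 listed relatives, partners and kinases 35 were in the table and CRB1 and DLG5 were not analysed here. By limma, 0 of 35 were called higher and 0 lower, and 5 of 35 had an unadjusted p under 0.05, beside the 16.0% of all genes. The log2 FC was positive for 18 and negative for 17, with a median of 0.0051. The lowest of the 35 was PALS1, which links CRB3 to PATJ. Its log2 values were 8.51, 8.55, 8.40 and 8.47 in pcDNA3 and 8.30, 8.25, 8.40 and 8.33 in pGRHL2 libraries 1 to 4. Every pair was lower in pGRHL2, although the difference in pair 3 was only -0.0023, whereas both of its partners among the members had positive values. The PALS1 log2 FC was -0.16 ± 0.13 (SD, n = 4 pairs; 95% interval -0.31 to -0.016), with a limma unadjusted p of 0.0334 and an adjusted p of 0.260.

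The highest of the related genes was F11R, which encodes the junctional adhesion molecule that anchors PAR3 at tight junctions. Its log2 values were 8.78, 8.73, 8.66 and 8.66 in pcDNA3 and 8.81, 8.86, 8.94 and 8.94 in pGRHL2 libraries 1 to 4. All 4 pairs were higher, with a log2 FC of 0.18 ± 0.12 (SD, n = 4 pairs; 95% interval 0.035 to 0.33), a limma unadjusted p of 0.0207 and an adjusted p of 0.209. DLG3 and PARD3B followed with log2 FC of 0.14 ± 0.18 and 0.13 ± 0.18 (limma adjusted p of 0.391 and 0.455), each higher in 3 of 4 pairs. At the other end, next to PALS1, were the kinase gene MARK3 at -0.11 ± 0.17 and LIN7A, whose product binds PALS1, at -0.081 ± 0.16 (limma adjusted p of 0.515 and 0.649). The remaining genes with an unadjusted p under 0.05, named after their values were seen, were AMOT, AMOTL1 and MARK1, all with mean log2 values under 1 and log2 FC under 0.1. Also named after its value was seen, CDC42, the GTPase that activates PAR6, was listed at a mean log2 value of 2.23, far below RAC1 at 11.3 and RHOA at 11.1, and the cause of this low listing was not tested.

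**Figure D4:**
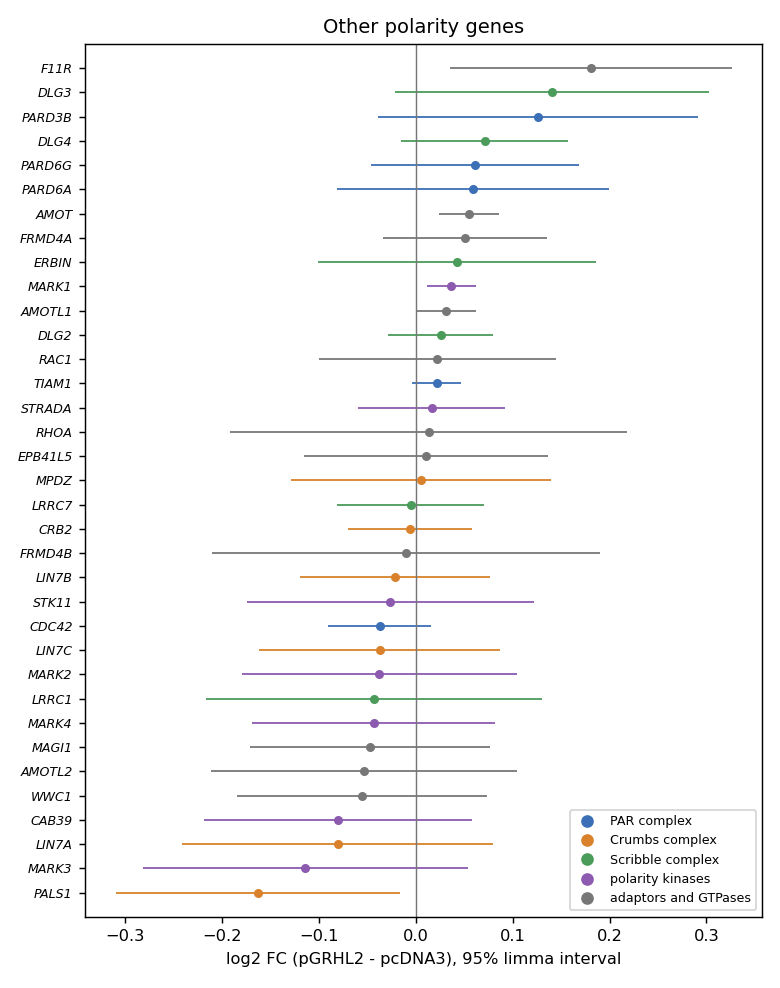
log2 FC (points; x axis, log2 units of pGRHL2 minus pcDNA3) with 95% limma intervals (bars) of the 35 related polarity genes, ordered by value and coloured by role. F11R at 0.18 and PALS1 at -0.16 are the ends of the order, and 5 of the 35 intervals exclude 0 before adjustment.

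The polarity gene lists of the study were counted as well. Of the 26 genes of its monopolar polarity list 22 were in the table, of which 1 was called higher and 0 lower by limma (beside 1.69% and 0.501% of all genes), and of the 40 genes of its epithelial polarity list 35 were in the table, with 1 higher and 0 lower. The called gene was FOXF1 in both, named after its value was seen, a forkhead transcription factor gene and not a component of the complexes. Its level was low, with a mean log2 value of 1.06, and its log2 FC was 0.13 ± 0.055 (SD, n = 4 pairs; limma adjusted p of 0.0203). An unadjusted limma p under 0.05 was found for 6 of 22 genes of the monopolar list (3 higher and 3 lower) and for 8 of 35 of the epithelial list (5 higher and 3 lower), beside 16.0% of all genes. Both lists share genes with each other, with the members and with the related genes, so that these counts are not separate. The log2 FC of largest size, named after its value was seen, was that of HES1 in the epithelial list. It was -0.35 ± 0.22 (SD, n = 4 pairs; limma adjusted p of 0.0722), lower in 4 of 4 pairs.

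The member values were recomputed under other settings. Of 120 values, 108 kept their direction and their side of the threshold, 11 changed sign and 1, that of PRKCZ without the replicate block, passed the threshold. Part of this was fixed in advance. The fits without the block, without the variance trend, with robust moderation and with the filter on mean values leave every log2 FC as it was. PRKCZ and PATJ, positive in every pair, could not change sign when a replicate was left out. Those that changed sign belonged to PARD3, PARD6B, PRKCI, LLGL1 and SCRIB, whereas PRKCZ, CRB3, PATJ and LLGL2 stayed positive and DLG1 stayed negative in all settings tried, although their sizes varied, as in LLGL2 from 0.011 to 0.099. No sign counts as a change of expression, since every member missed the threshold in the reported test.

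**Figure D5:**
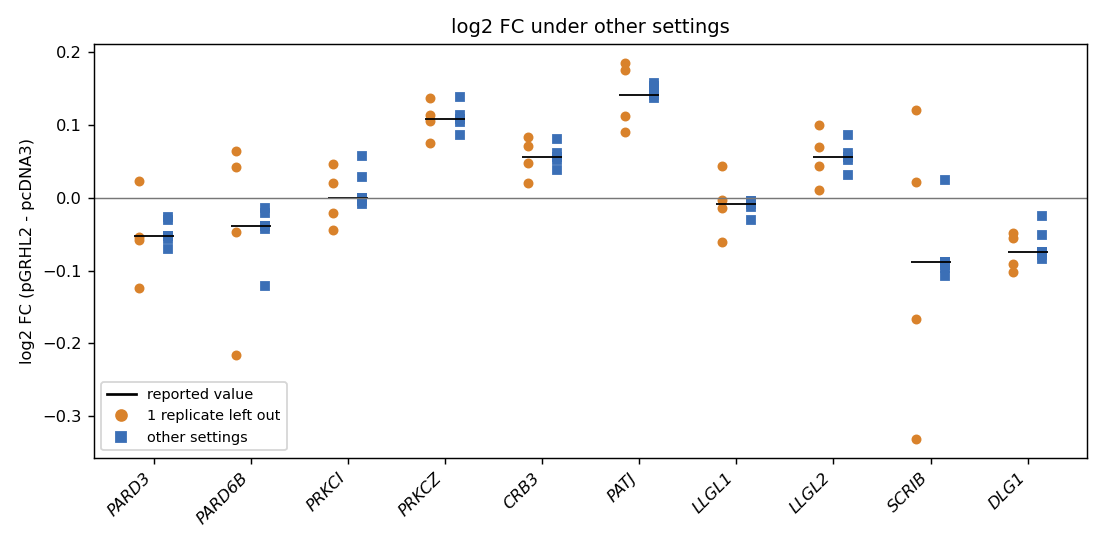
log2 FC of the 10 polarity genes (y axis, pGRHL2 minus pcDNA3) as reported (black mark), with 1 replicate left out (orange) and under the other settings (blue). The values of SCRIB spread most when a replicate is left out, from -0.33 to 0.12, while those of PATJ stay between 0.091 and 0.19.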

How the data were processed

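Reads were aligned by the authors to hg38 with HISAT2 (2.2.1 in the submitters' processing notes) and counted per gene over exons, regardless of strand, with HTSeq 0.9.1. Genes with a low read total were dropped, and the counts were rlog-transformed in DESeq2 (1.40.2 in the same notes) and adjusted for mean transcript length. The deposited values are log2 values, although the table is named as FPKM: 3.71% are below 0, and among 2371 genes whose values ranged over less than 0.05 the slope of the mean against log2 transcript length was -0.84. Rlog shrinks differences of weakly expressed genes, so that their fold changes are understated. Genes were matched to GENCODE release 44 (99.9% by symbol). CRB3, PARD6B and PRKCI have named pseudogenes there, and how reads were shared with these was not tested.

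Same-numbered libraries have identical pair means in 17561 of 17561 genes, which fixes the correlation of their deviations, so that a check of pairing is void. No source used here describes this step. The replicate number, taken from the labels, was therefore fitted as a block in limma 3.58.1 (R 4.3.3; lmFit, eBayes with trend; Benjamini-Hochberg over all genes; threshold 0.05). The fit was first run on simulated mirrored pairs with the spread of the real pair differences, which cannot show whether the model suits these data. Named were all members, GRHL2, called related genes and the 3 largest related increases and decreases. The members, lists and settings were chosen with earlier results of these data known.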

Additional observations from a re-analysis of the deposited data

How the results depend on the processing

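The settings tried were the limma fit without the replicate block, without the variance trend, with robust moderation or library weights, 2 other scalings, a filter on mean values under 5, an adjusted p under 0.01, correction for GC content, transcript length and level in the blocked fit, and leaving out each replicate (both libraries of a pair). The number of members called was 0 in each except without the block, where 1 was higher (PRKCZ) and, of the related genes, 3 were higher and 1 lower. The fit without the block counts the mirrored values of a pair as independent, so that its calls are too many. Over all genes, 297 higher and 88 lower calls became 1821 and 1427 without the block, 4 and 2 without the variance trend, 503 and 221 with library weights, 184 and 57 with quantile normalization, and 77 and 10 at an adjusted p under 0.01. The higher calls became 63 with the filter on mean values (beside 81 lower) and 146 with trends removed (beside 73 lower). Leaving out a replicate gave 79 to 156 higher and 8 to 68 lower calls.

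Signs changed with library weights for PRKCI (-0.0092) and SCRIB (0.025), and with median centring without GRHL2 for PRKCI (-0.0041). Leaving out a replicate gave -0.12 to 0.023 for PARD3, -0.22 to 0.064 for PARD6B, -0.045 to 0.047 for PRKCI, -0.060 to 0.044 for LLGL1 and -0.33 to 0.12 for SCRIB. The causes were not tested. The paralogue differences were recomputed with both other scalings, with trends removed and with each replicate left out, and kept their direction in these. Median centring could not change them, since it shifts both genes alike. PRKCI minus PRKCZ, negative in every pair, could not change sign when a replicate was left out. Leaving out a replicate gave 0.026 to 0.11 for LLGL2 minus LLGL1 and -0.13 to -0.059 for PRKCI minus PRKCZ. Read depth is unknown, so that no counting error was computed.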
